A study of Rattus norvegicus with 6 samples.

Results

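The 10 macrophage genes examined here (Csf1r, Adgre1, Cd163, Mrc1, Cd68, Cd14, Trem2, Spp1, Lgals3 and Gpnmb) were found by matching each array probe's RefSeq accession to rat gene symbols. All 10 were on the array, among 15443 named genes. Csf1r had 2 probes, of which the brighter was used, and the other 9 genes had 1 probe each. The series followed ADSCs (stem cells of adipose tissue, which are mesenchymal and grow attached in culture) loaded with 124I-HIB, a fat-soluble label for positron emission tomography, in culture and after injection into the infarcted rat heart. All samples came from Sprague Dawley rats aged 13 weeks and were run on 6 one-colour arrays. The cultures were 1 of ADSCs labelled with the tracer and 1 of unlabelled ADSCs, both at 14 days of culture. The myocardial arrays were 2 of infarcted myocardium injected with tracer-labelled ADSCs (ADSC infarct, numbered replicates 1 and 3 in the labels), 1 of infarcted myocardium injected with PBS (PBS infarct) and 1 of sham-operated myocardium without infarction (sham). For tissue the time was 21 days, counted in the labels from sham surgery even where the heart was infarcted. No infarct received unlabelled ADSCs, so the injected cells and their tracer cannot be told apart. The labels do not say which part of the heart was taken, whether the ADSC infarct pair came from separate animals, or whether animals were pooled.

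Macrophages are phagocytes that live in every tissue and are joined by monocytes from blood after injury. In the heart they clear dead muscle after infarction and take part in scar formation. Survival of the lineage depends on the receptor encoded by Csf1r, while Adgre1 encodes F4/80, a surface protein long used in mice to mark it. Scavenger receptors (Cd163 for haemoglobin bound to haptoglobin, Mrc1 for mannose-bearing ligands) are typical of resident macrophages. Trem2, a lipid-sensing receptor that signals through the adaptor encoded by Tyrobp, Gpnmb, Spp1 and Lgals3 are known from lipid-laden and scar-associated macrophages. Spp1, Lgals3, Gpnmb, Cd68 and Cd14 are also made by some cells that are not macrophages.

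The upstream windows of 4 of these genes are shown because the genes fell on opposite sides when cultured ADSCs were set against myocardium: Trem2 and Adgre1 were low in the cultures, Gpnmb and Cd14 high. Each window runs from 250 bases before to 50 bases after the annotated start on the gene's own strand, from RefSeq on GRCr8, which had an entry for 9 of the 10 genes (all but Lgals3). The windows are chr9:20151730-20152029 (minus strand) for Trem2, chr9:2329190-2329489 (plus strand) for Adgre1, chr4:79340878-79341177 (plus strand) for Gpnmb and chr18:28611109-28611408 (minus strand) for Cd14. Capitals mark matches on either strand to GAGGAA (a purine-rich run of the kind bound by ETS factors such as PU.1), TGANTCA (AP-1), TCACNTGA (the MITF and TFE family) or TATAAA.
Trem2: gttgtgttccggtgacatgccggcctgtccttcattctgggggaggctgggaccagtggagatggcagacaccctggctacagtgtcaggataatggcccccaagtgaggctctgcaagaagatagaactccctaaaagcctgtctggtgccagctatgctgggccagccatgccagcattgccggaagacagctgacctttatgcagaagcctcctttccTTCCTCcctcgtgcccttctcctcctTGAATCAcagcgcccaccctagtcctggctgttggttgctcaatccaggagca
Adgre1: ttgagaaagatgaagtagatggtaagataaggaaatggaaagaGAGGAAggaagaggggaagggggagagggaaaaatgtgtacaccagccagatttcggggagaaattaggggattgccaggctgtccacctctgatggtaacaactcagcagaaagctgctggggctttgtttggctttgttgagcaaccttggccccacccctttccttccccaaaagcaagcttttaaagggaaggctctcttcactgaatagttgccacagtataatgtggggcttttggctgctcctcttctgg
Gpnmb: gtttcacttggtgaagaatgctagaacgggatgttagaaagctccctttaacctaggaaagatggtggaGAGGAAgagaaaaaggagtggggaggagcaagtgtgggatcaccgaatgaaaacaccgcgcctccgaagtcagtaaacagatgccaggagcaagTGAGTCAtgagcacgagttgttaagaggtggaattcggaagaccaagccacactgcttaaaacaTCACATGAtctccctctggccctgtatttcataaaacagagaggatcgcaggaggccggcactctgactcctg
Cd14: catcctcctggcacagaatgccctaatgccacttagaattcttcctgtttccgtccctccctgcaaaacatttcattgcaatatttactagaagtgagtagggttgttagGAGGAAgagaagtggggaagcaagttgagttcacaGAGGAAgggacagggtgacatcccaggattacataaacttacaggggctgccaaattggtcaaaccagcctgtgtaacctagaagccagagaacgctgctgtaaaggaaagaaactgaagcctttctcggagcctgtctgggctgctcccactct
GAGGAA was present in 7 of the 9 windows, against 27.6% of 33469 windows of all genes, and was absent from those of Cd163 and Spp1. TGANTCA was in 3 of the 9 (Trem2, Cd68 and Gpnmb), against 7.33% of all windows. The matches of Cd68 and Gpnmb read TGAGTCA, whereas that of Trem2 read TGAATCA, which is not the AP-1 site. TCACNTGA was in that of Gpnmb alone, against 3.93%, and TATAAA in that of Spp1 alone, against 14.2%. Windows with and without GAGGAA occurred on both sides of the culture comparison: Trem2 and Cd163 were both low in the cultures, Gpnmb and Spp1 both high. A match says only that these letters are there.

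Levels are given as log2 processed signal minus the 75th percentile of that array, so that 0 is the array's 75th percentile; a level belongs to its own probe and is not set against that of another gene. The 75th percentile was a signal of 2615 and 2360 in labelled and unlabelled cultures, 1276 and 1058 in ADSC infarct replicates 1 and 3, 1120 in PBS infarct and 772 in sham. The share of probes well above background (the scanner software's own call) was 64.4% to 69.4%, with none of their spots saturated. Precision is limited by array number, since all groups but ADSC infarct hold 1 array. The PBS infarct array stood apart by its atrial, fat and red-cell markers. The atrial summed signal, in multiples of the 75th percentile, was 449 in PBS infarct, against 165 and 142 in ADSC infarct and 168 in sham. Gene by gene, PBS infarct stood above sham by log2 differences of 8.07 for Myl7, 6.84 for Mybphl and 3.70 for Nppa. Myl4, bright on every myocardial array, differed by -0.23, which keeps the gap in the sum small. Sln and Bmp10 were not well above background in sham. The adipocyte gene Adipoq was well above background there alone, and the 3 measured erythroid genes were 2-fold lower there than in sham. Of the tissue labels, the 8 ventricular cardiomyocyte markers were all well above background on every myocardial array, while Myh6, Myl2 and Myl3 were so in neither culture. The 5 mesenchymal surface markers (Thy1, Nt5e, Eng, Cd44 and Itgb1) were all well above background in both cultures, and the leukocyte gene Ptprc (CD45) in neither.

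The genes fell into 3 kinds by where they were measured. Trem2, Cd163 and Mrc1 were well above background in myocardium but in neither culture (for Mrc1, in all myocardial arrays but sham). Trem2 and Cd163 were therefore 2 of 9 genes measured on all 4 myocardial arrays and in neither culture, against 4.8% of features. Adgre1 was so in all myocardial arrays and in the unlabelled culture only. The other 6 were well above background on all 6 arrays.

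Of the lineage receptors, Csf1r stood at -4.18 in labelled and -4.02 in unlabelled cultures, -1.02 and -0.78 in ADSC infarct, -1.35 in PBS infarct and -1.32 in sham. Adgre1 stood at -7.19 and -6.28 in labelled and unlabelled cultures, -4.22 and -4.03 in ADSC infarct, -3.76 in PBS infarct and -3.35 in sham. Both were lower in both cultures than on any myocardial array, and within myocardium the ADSC infarct pair was lowest for Adgre1. For Csf1r the pair was highest by this, the brighter, probe, but by the dimmer probe it stood at -3.33 and -3.03 in ADSC infarct, -2.79 in PBS infarct and -3.21 in sham.

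Of the scavenger receptors, Cd163 stood at -8.58 and -8.09 in labelled and unlabelled cultures (neither well above background), -2.01 and -1.99 in ADSC infarct, -1.73 in PBS infarct and -2.13 in sham. Mrc1 stood at -8.60 and -8.62 in labelled and unlabelled cultures, -5.24 and -5.13 in ADSC infarct, -5.06 in PBS infarct and -5.50 in sham. Both were highest in PBS infarct and lowest in sham within myocardium, although the sham value of Mrc1 was not well above background. Cd68, a lysosomal membrane glycoprotein, stood at -2.61 and -2.54 in labelled and unlabelled cultures, -1.19 and -1.25 in ADSC infarct, -1.32 in PBS infarct and -1.19 in sham. Its 4 myocardial values spanned only 0.13, the smallest range of the 10 genes. Cd14, the co-receptor that passes lipopolysaccharide to Tlr4, stood at 0.46 and 0.23 in labelled and unlabelled cultures, -2.14 and -2.02 in ADSC infarct, -1.59 in PBS infarct and -2.29 in sham. It was higher in both cultures than in all myocardium.

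Trem2 stood at -9.19 and -7.89 in labelled and unlabelled cultures (neither well above background), -0.59 and -0.55 in ADSC infarct, 0.16 in PBS infarct and 0.05 in sham. The ADSC infarct arrays lay close together and below both other myocardial arrays. Gpnmb, a transmembrane glycoprotein of lysosome-rich cells, stood at 3.53 and 4.09 in labelled and unlabelled cultures, -2.23 and -2.39 in ADSC infarct, -2.30 in PBS infarct and -2.56 in sham. Its myocardial arrays lay within 0.33 of one another, far below both cultures.

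Of the secreted proteins, Lgals3 (galectin-3, a lectin that binds beta-galactosides) stood at 6.61 and 6.60 in labelled and unlabelled cultures, 1.18 and 1.79 in ADSC infarct, 2.08 in PBS infarct and 1.34 in sham. Spp1 (osteopontin, a matrix protein and cytokine that binds integrins and CD44) stood at -1.39 and -1.14 in labelled and unlabelled cultures, -2.37 and -4.20 in ADSC infarct, -2.07 in PBS infarct and -2.45 in sham. The ADSC infarct arrays straddled sham for both genes, and ADSC infarct replicate 3 was far below every other array for Spp1.

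**Figure D1:**
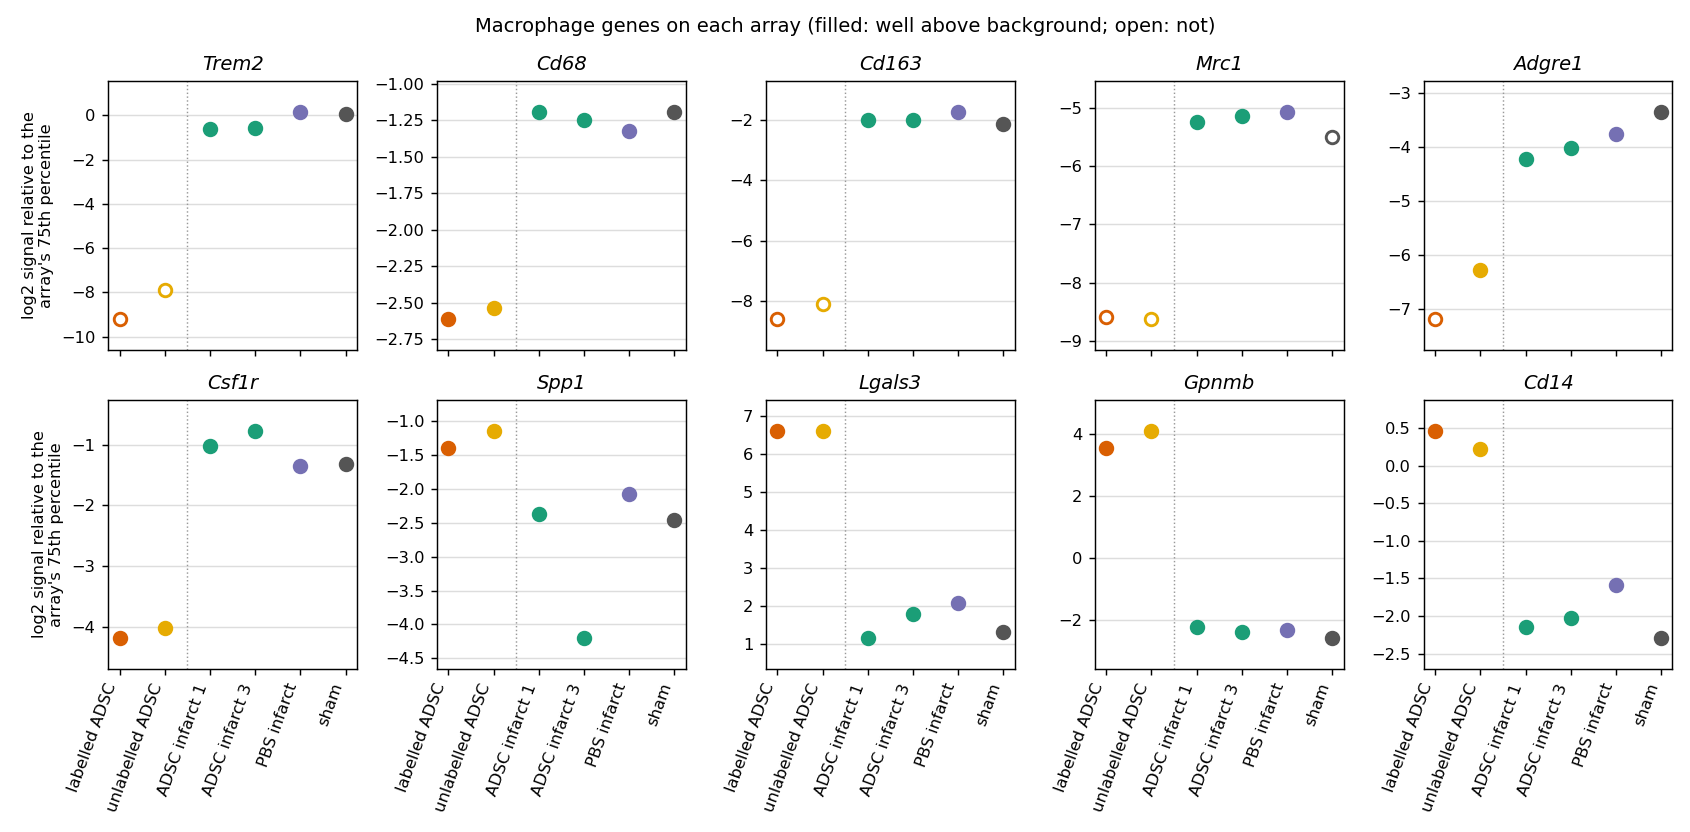
Level of each of the 10 genes (log2 processed signal relative to the array's 75th percentile, a scale of its own in each panel) on the 6 arrays; filled points are well above background and open points are not. In 6 panels both cultures lie below all myocardial arrays and in 4 above, while ADSC infarct 3 is the lowest point for Spp1, at -4.20.

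The first comparison asked how infarcts that received labelled ADSCs differed from the PBS-injected infarct. Of the 10 genes, 7 were lower in both ADSC infarct arrays than in PBS infarct, where 34.2% of the 17019 features measured on these 3 arrays were. Cd68 and, by its brighter probe only, Csf1r were higher in both, against 38.7% of features, and Gpnmb lay on both sides. The median log2 difference of the 10 was -0.31, against 0.01 over all features. None was 2-fold apart in both arrays, as 0.429% of features were 2-fold higher and 0.823% 2-fold lower. No gene had a limma adjusted p below 0.05 (0.0% of 19230 features did), and Trem2 alone had an unadjusted p under 0.05, as did 9.71% of features. In bulk tissue fewer macrophages and less RNA per macrophage cannot be told apart.

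Trem2 stood lower, with a mean log2 difference of -0.73 ± 0.03 (SD, n = 2; 1.66-fold; limma adjusted p = 0.41), at -0.75 and -0.70 in replicates 1 and 3. It is read from 1 spot per array, so the closeness of the pair has no check within an array. Cd14 was lower by -0.50 ± 0.08 (adjusted p = 0.53), Adgre1 by -0.36 ± 0.14 and Cd163 by -0.27 ± 0.02. Each of these differences was larger than the gap between the ADSC infarct arrays. Lgals3 averaged -0.59 ± 0.43, at -0.90 and -0.29 in replicates 1 and 3, so its size differed about as much between the arrays as from PBS infarct. Mrc1 averaged -0.12 ± 0.08 (95% interval -0.63 to 0.38) and Cd68 0.10 ± 0.04 (-0.38 to 0.59). Gpnmb stood at -0.01 ± 0.11 (95% interval -0.54 to 0.52).

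The probes of Csf1r disagreed. The brighter probe was higher in ADSC infarct than in PBS infarct by 0.45 ± 0.17 (adjusted p = 0.608), while the dimmer probe was lower by a mean log2 difference of -0.39. Against sham the brighter probe stood at 0.42 and the dimmer at 0.03. No direction is therefore given for Csf1r in infarcts.

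Spp1 separated the ADSC infarct pair. Its log2 difference from PBS infarct was -0.29 in replicate 1 and -2.12 in replicate 3 (mean -1.21 ± 1.29, adjusted p = 0.752). It was the only 1 of 9 genes more than 2-fold apart between these arrays, as were 1.23% of features. Only 21 of 16641 features well above background on all myocardial arrays (0.126%) were as far apart between replicates 1 and 3. The probe is printed in 10 spots per array, and all 10 gave signals between 43.5 and 73.8 in replicate 3, against 219 to 271 in replicate 1, 243 to 312 in PBS infarct and 122 to 187 in sham. The spots did not overlap between the pair, so the gap was not made by a single spot. Without replicate 3 the difference from PBS infarct was -0.29, and without replicate 1 it was -2.12. Over the 4 myocardial arrays, the genes nearest to Spp1 by Euclidean distance between centred log2 levels, among 10436 named genes, were Ubd (0.29), Iqcm (0.35) and Rpl22l1 (0.62).

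**Figure D2:**
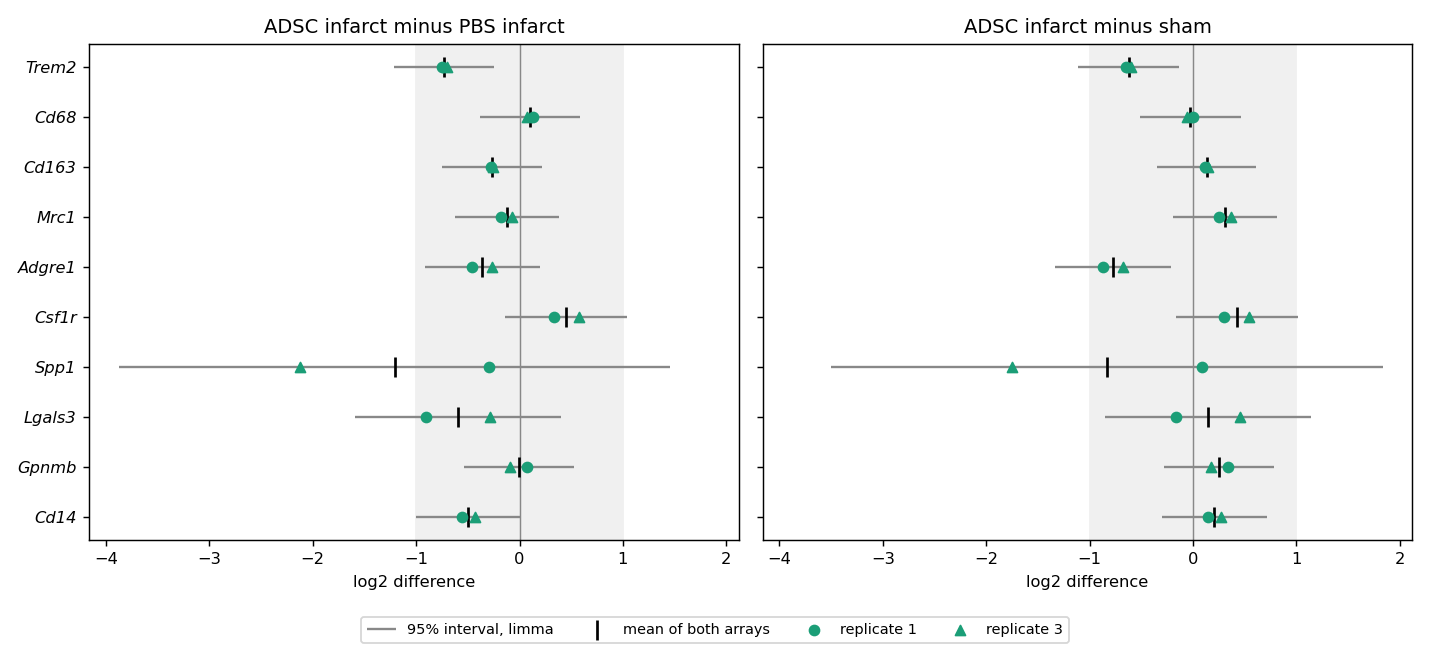
Log2 difference of ADSC infarct from PBS infarct (left) and from sham (right) for each gene: points are the 2 ADSC infarct arrays, bars their mean and lines the 95% limma interval, with the band marking differences under 2-fold. Trem2 lies at -0.73 and -0.62 with the arrays close together, the Spp1 arrays lie apart, at -0.29 and -2.12 from PBS infarct, and Mrc1 is drawn against a sham value not well above background.

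Against sham, the question was what still differed in ADSC-injected infarcts from uninjured myocardium. Trem2 was lower by -0.62 ± 0.03 (limma adjusted p = 0.467) and Adgre1 by -0.78 ± 0.14 (adjusted p = 0.453). These 2 genes had unadjusted p under 0.05, as did 9.59% of 19230 features, and 0.0% passed after adjustment. They were also the 2 of 9 genes measured on all myocardial arrays whose ADSC infarct values both lay below both PBS infarct and sham, against 17.9% of features. Csf1r, by its brighter probe, was the 1 gene above both in both arrays, against 16.7%. Before scaling, Trem2 had signals of 845 and 723 in ADSC infarct, 1248 in PBS infarct and 800.0 in sham, so before scaling replicate 1 lay above sham and replicate 3 below it, and both lay below it after scaling. The sham value of Adgre1 rests on 2 spots with signals of 56.5 and 102, which lie 0.85 apart on the log2 scale, more than the difference itself.

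Of the 9 genes measured on these 3 arrays, 4 were higher in both ADSC infarct arrays than in sham (33.0% of 16747 features) and 3 were lower (42.3%). The higher ones were Gpnmb (0.25 ± 0.11), Cd14 (0.21 ± 0.08), Cd163 (0.13 ± 0.02) and, by its brighter probe only, Csf1r. Cd68, counted as lower, differed by -0.03 ± 0.04 and was all but equal to sham in replicate 1 (-0.0012). Lgals3 differed by 0.15 ± 0.43. The median of the 9 was 0.13, against -0.04 over all features, and -0.02 with normexp background correction. None was 2-fold apart in both arrays (0.585% of features were higher and 0.394% lower by that rule). Over all 3 infarct arrays, Cd68 and Adgre1 lay below sham (34.3% of features did) and Cd163, Gpnmb and Cd14 above it (24.9%). Most genes of several wider lists were lower than sham. Of 21 pan-macrophage and myeloid genes measured, 15 were lower in both ADSC infarct arrays and 1 higher (median -0.31). Of 18 lipid-associated genes, 13 were lower and 3 higher (median -0.17). Of 8 monocyte recruitment genes, 6 were lower and 1 higher (median -0.27). For the Csf1r axis, 2 of 4 genes were higher and 0 lower (median 0.12). None of these passed in limma. The comparisons with PBS infarct and with sham share the ADSC infarct arrays.

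PBS infarct against sham asked what infarction without cells did, on 1 array each and so with no replicate check. Lgals3 was higher by a log2 difference of 0.74 (1.67-fold), Cd14 by 0.70 (1.62-fold), Cd163 by 0.40, Spp1 by 0.38, Gpnmb by 0.26 and Trem2 by 0.10. Adgre1 was lower, at -0.42, Cd68 at -0.13 and Csf1r at -0.03, its dimmer probe being higher at 0.42. Mrc1 was not well above background in sham and was left out. Thus 6 of 9 were higher, where 44.5% of 16944 features were, and 3 lower, where 55.5% were, with a median of 0.26 against -0.05 over all features. No gene was 2-fold apart, as 2.24% of features were 2-fold higher and 1.44% 2-fold lower. The PBS infarct array was the highest of the myocardial arrays for 5 of 9 genes (Trem2, Cd163, Spp1, Lgals3 and Cd14), against 24.1% of 16641 features.

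The PBS infarct array enters both this and the first comparison, and some markers of other cells stood apart there too. All 8 fibroblast markers were lower in both ADSC infarct arrays than in PBS infarct, where 34.2% of features were. Their summed levels were 62.9 and 70.4 in ADSC infarct, 83.6 in PBS infarct and 72.6 in sham. Of the atrial markers, all 6 were well above background in PBS infarct, while Mybphl and Bmp10 were so in neither ADSC infarct array. The T and NK cell markers had summed levels of 1.58 and 1.64 in ADSC infarct, 1.45 in PBS infarct and 1.81 in sham. Gene by gene they were mixed: of 9 measured, 4 were higher in both ADSC infarct arrays than in PBS infarct and 3 lower (median 0.01). Over all features 38.7% were higher and 34.2% lower. Ptprc did not stand apart in PBS infarct (-1.72), lying between ADSC infarct (-2.16 and -1.88) and sham (-1.52). The adipocyte gene Adipoq stood at -8.17 and -7.88 in ADSC infarct, -2.66 in PBS infarct and -7.78 in sham. The erythroid gene Alas2 stood at 2.31 and 2.43 in ADSC infarct, 1.27 in PBS infarct and 2.29 in sham. The part of these markers in the values of the macrophage genes was not tested.

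Other macrophage genes were read from lists. Of 25 pan-macrophage and myeloid genes, 22 were measured in ADSC infarct and PBS infarct. In both ADSC infarct arrays 13 were lower, against 34.2% of features, and 4 higher, against 38.7%. None passed in limma, and the median was -0.13. The complement subunits C1qb (-0.56) and C1qa (-0.49) were lowest and Ncf1, a subunit of the phagocyte oxidase, was highest (0.68). Tyrobp, the signalling partner of Trem2, stood at 1.53 and 1.59 in ADSC infarct, 1.67 in PBS infarct and 2.10 in sham, so it too was lowest in ADSC infarct, by -0.11 from PBS infarct and -0.54 from sham. In PBS infarct against sham, 15 of 22 genes of this list were lower, where 55.5% of features were, and 7 higher (median -0.21). The Fc receptor Fcgr3a was lowest at -1.06, and Itgam (0.73) and Fcgr2b (0.52) were highest. The complement subunits differed in direction, with C1qa (0.48) and C1qb (0.45) higher and C1qc lower (-0.43).

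Of the resident-type genes, 5 of 7 measured were lower in both ADSC infarct arrays than in PBS infarct (median -0.27), against 34.2% of features. Among them were Lyve1, a hyaluronan receptor (-0.56), and F13a1, coagulation factor XIII (-0.36). Gas6, a ligand of the receptor Mertk, was the 1 gene higher in both (0.62), against 38.7% of features. None passed in limma. In PBS infarct against sham 6 of the 7 were higher (median 0.17), where 44.5% of features were, with Lyve1 at 0.44. The monocyte recruitment list had the lowest median of the 12 macrophage lists in ADSC infarct against PBS infarct, at -0.66. Of its 8 measured genes, 7 were lower in both arrays, against 34.2% of features, and none passed. Markers of other cells had lower medians still: smooth muscle at -0.91 and atrial cardiomyocyte at -2.25, each with 3 of 3 measured genes lower. S100a4 (-1.16 ± 0.20) and the proteoglycan Vcan (-1.05 ± 0.04) were 2-fold lower in both arrays. In PBS infarct against sham 7 of the 8 were higher (median 0.33), against 44.5% of features, a comparison that shares the PBS infarct array. Fibroblasts also make S100a4 and Vcan, along with Fn1 (-0.73) of the same list, and Ccr2, the chemokine receptor of monocytes, stood at 0.05.

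Of 18 measured genes of the lipid-associated list, 9 were lower in both ADSC infarct arrays than in PBS infarct, against 34.2% of features. Another 6 were higher, against 38.7%. The median was -0.04, and none passed. Apoe, the lipid carrier that Trem2 binds, stood furthest down at -0.96 ± 0.10 (limma adjusted p = 0.352). Its levels were 3.52 and 3.65 in ADSC infarct, 4.55 in PBS infarct and 3.31 in sham, so the PBS infarct array was the high one. The haem oxygenase Hmox1, which degrades haem taken up through Cd163, was highest in that list, at 0.59. Hmox1 stood at -1.33 and -1.58 in ADSC infarct, -2.04 in PBS infarct and -1.23 in sham, so here the PBS infarct array was the low one. Of the partners of Trem2, 6 of 10 measured were lower in both ADSC infarct arrays and 1 higher (median -0.17), against the same shares of features. Adam10, a protease known to shed Trem2, stood at -0.61, and the kinase gene Syk at 0.03.

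For the ligands of Csf1r, Csf1 stood at -0.43 and -0.25 in ADSC infarct, 0.04 in PBS infarct and -0.79 in sham, and Il34 at 0.79 and 1.11 in ADSC infarct, 0.95 in PBS infarct and 0.88 in sham. Csf1 was therefore above sham on all 3 infarct arrays, while Il34 in ADSC infarct straddled PBS infarct. Of the partners of Cd14, Tlr4 stood at -3.85 and -3.65 in ADSC infarct, -3.55 in PBS infarct and -3.94 in sham, the same order of groups as Cd14. Others of that list did not follow it. Tlr2 was highest in sham (-1.03), at -1.67 in PBS infarct and -2.07 and -2.01 in ADSC infarct. Ly96 stood at -2.60 and -2.41 in ADSC infarct, -2.58 in PBS infarct and -2.47 in sham. Lbp, which hands lipopolysaccharide to Cd14, was 2-fold higher in PBS infarct than in sham (1.07), as were 2.24% of features. Of the osteopontin receptors, Cd44 stood at -0.89 and -0.79 in ADSC infarct, -0.18 in PBS infarct and -0.59 in sham. The integrin Itga8 was 2-fold higher in PBS infarct than in sham (1.90), as were 2.24% of features. The list was divided there: of 6 receptors measured, 3 were higher (44.5% of features) and 3 lower (55.5%), with a median of 0.05. The lower ones included Itga4 (-0.41) and Itgb5 (-0.28).

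**Figure D3:**
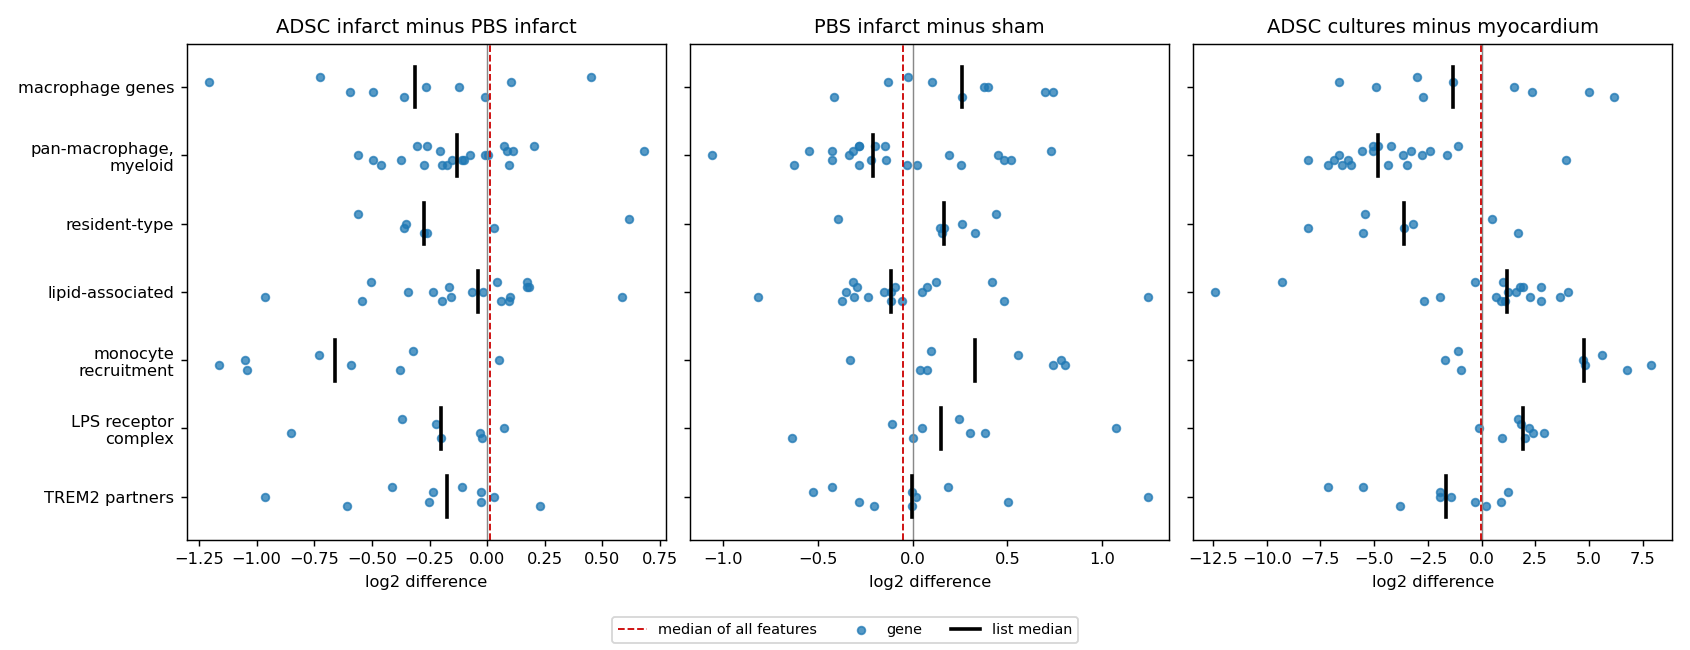
Log2 differences of the genes measured in 7 lists (points) with each list's median (black bar) and the median of all features (dashed line), in 3 comparisons with a scale of their own. The monocyte recruitment median lies at -0.66 in ADSC infarct against PBS infarct, and in the cultures the pan-macrophage median lies at -4.83 while that of the LPS receptor complex lies at 1.93.

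The clearest separation was between cultured ADSCs and myocardium. Gpnmb was 72.7-fold higher in the cultures (log2 difference of means 6.18), Lgals3 32.2-fold (5.01) and Cd14 5.12-fold (2.36). Each was at least 2-fold higher in both cultures than on every myocardial array, as were 14.4% of 18934 features. Spp1 was 2.84-fold higher on average and above all myocardial arrays, but less than 2-fold above PBS infarct. At the other end, Trem2 was at least 98.4-fold lower, Cd163 at least 29.7-fold and Mrc1 at least 3.08-fold lower. These bounds set the myocardial mean against the lowest signal called well above background on each culture array, since the genes' own signals there were dimmer and not well above background. The measured means were -8.54 in cultures and -0.23 in myocardium for Trem2, -8.33 and -1.96 for Cd163, and -8.61 and -5.23 for Mrc1. With normexp background correction, which adds an offset to every signal, the log2 differences were smaller, at -5.15 for Trem2, -3.25 for Cd163 and -1.79 for Adgre1, so the bounds hold for the scanner's processed signal only. Csf1r was 7.91-fold lower in the cultures (log2 -2.98), Adgre1 6.70-fold (-2.74, with the labelled culture at its bound) and Cd68 2.52-fold (-1.34). Trem2, Cd68, Cd163, Adgre1 and Csf1r made 5 of 9 genes at least 2-fold lower in both cultures than on every myocardial array, as were 18.4% of features. The median log2 difference of the 9 was -1.34, against -0.03 over all features. There is 1 array of each culture and no test was made.

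**Figure D4:**
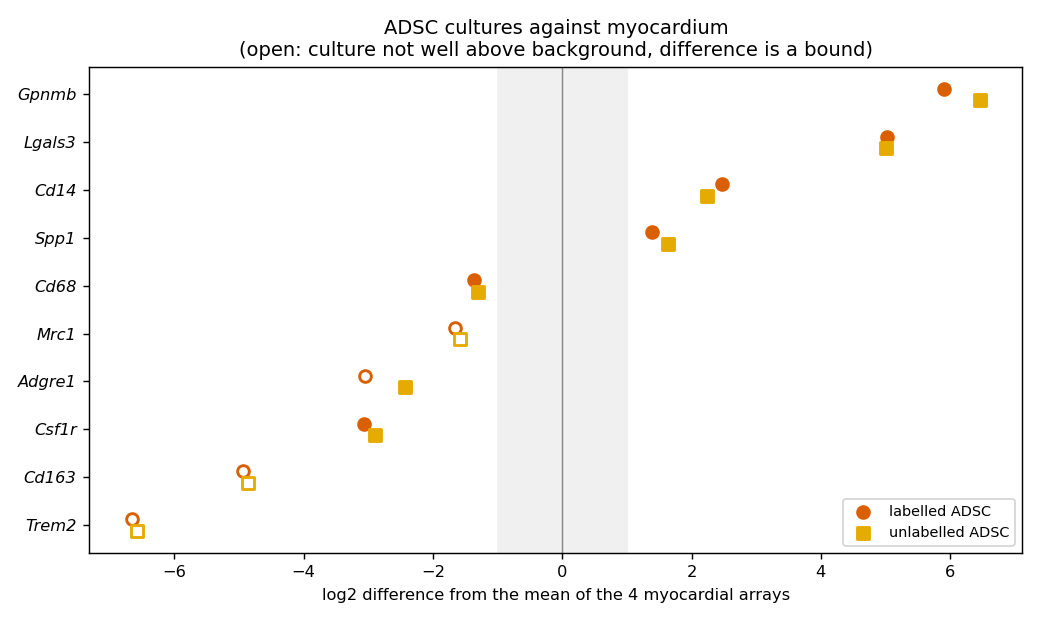
Log2 difference of each culture from the mean of the 4 myocardial arrays, with the band marking differences under 2-fold; open symbols are bounds for genes not well above background in that culture. Gpnmb, Lgals3, Cd14 and Spp1 lie to the right and the other 6 to the left, with Trem2 lowest.

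The other macrophage genes divided in the same comparison. Counts here are of genes at least 2-fold beyond every myocardial array in both cultures. By that rule 14.4% of all features were higher and 18.4% lower. Of 21 pan-macrophage and myeloid genes measured, 19 were lower and 1, Fcgr2b, was higher (median -4.83, with genes not well above background at their bounds). Tyrobp was lower by a log2 difference of -7.14 and Aif1, a calcium-binding protein of macrophages, by -3.48. Resident-type genes were lower in 5 of 7, among them Lyve1 (-5.41) and Pf4, a platelet factor also made by tissue macrophages (-8.09), both at their bounds. Of 8 monocyte recruitment genes, 5 were higher, led by the chemokines Ccl7 (7.88) and Ccl2 (6.80), whereas their receptor gene Ccr2 was lower (-1.68, at its bound). The LPS receptor complex was higher in 5 of 8 genes and lower in none, Tlr4 at 2.39 and Tlr2 at 2.00, beside Cd14. Of the lipid-associated list, 8 of 18 were higher, among them the cathepsin gene Ctsk at 4.02, Hmox1 at 3.65 and Abca1 at 2.78. In that list 4 were lower: Cd36 (-12.41, at its bound), Fabp4 (-9.30), Lpl (-2.66) and Apoe (-1.94). The fibroblast markers were higher in 5 of 8 genes in the cultures, with summed levels of 369 and 362 in labelled and unlabelled cultures, against 62.9 to 83.6 in myocardium.

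The last comparison asked what the tracer did in culture, on 1 array each with no replicate check. Of the 6 genes measured in both cultures, none was 2-fold apart, as 0.447% of 17908 features were 2-fold higher and 0.581% 2-fold lower. Gpnmb was lower in labelled cells by a log2 difference of -0.55 (1.47-fold), Spp1 by -0.25 and Csf1r by -0.16, its dimmer probe standing at 0.61. Cd14 was higher by 0.24, and Cd68 (-0.07) and Lgals3 (0.01) were near 0. By sign, 2 of 6 were higher (44.0% of features) and 4 lower (56.0%). The median of the 6 was -0.12, against -0.04 over all features. Trem2, Cd163, Mrc1 and Adgre1 were not well above background in labelled cells and receive no difference. Of the lysosome genes linked to the MITF and TFE factors, 11 of 13 were lower in labelled cells (median -0.17), where 56.0% of all features were lower.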

How the data were processed

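Total RNA from myocardium or cultured cells was labelled with Cy3, per the labels' protocols. The authors deposited each array's scanner output, whose intensity values (processed signal, median signal and local background) come from Agilent's scanner software; the submitters' processing notes list Agilent Feature Extraction 11.0.1.1. The file headers name an rn4 design and 1 slide, so no slide or scan batch could be tested. A second deposited table holds log2 values; how the authors made it is not stated in the labels or headers. Its columns followed log2 processed signal and had equal medians within the myocardial arrays (8.85) and within the cultures (9.67), so it was scaled separately in each. It was used as a variant only.

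Levels are log2 processed signals from which the array's own 75th percentile was subtracted. Spots that were controls or outliers were dropped before spots of one probe were averaged. Probes were named through unversioned accessions in a RefSeq table (GRCr8, for names and promoter windows): 18355 of 30367 probes had a symbol and 12012 had none. The brightest probe stood for a gene, giving 26773 features. Comparisons with ADSC infarct were fitted with limma 3.58.1 (R 4.3.3; lmFit, eBayes, Benjamini-Hochberg over the 19230 features that 1 or more of the 4 myocardial arrays measured well above background). Only the ADSC infarct pair leaves a residual degree of freedom (1), so the lone PBS and sham arrays are assumed to vary like it, and p-values measure only a spread that may be technical. The fit was tested on simulated data. All other comparisons are 1 array against 1, or a range against a range, with no test. Counts used a threshold of 2-fold in every array compared.

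The members and lists were chosen with earlier results of these data known. All 10 members are named; from 26 other lists (211 of 232 genes on the array), genes 2-fold apart, at a list's ends, or partners of a member are named. Figures were drawn with matplotlib 3.10.9.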

Additional observations from a re-analysis of the deposited data

How the results depend on the processing

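Background correction, normalization, the deposited table, the percentile's probes, the mean over probes, the spread model, filters and single ADSC infarct arrays were varied. No member passed limma in any of the 9 fits of either comparison. Over those fits Trem2 stayed between -0.74 and -0.71 against PBS infarct (adjusted p = 0.146 to 0.553) and between -0.62 and -0.58 against sham (adjusted p = 0.23 to 0.6), both limma. Features passing against PBS infarct numbered 0, but 82 after normexp correction and 59 when the spread followed a robust trend. Against sham they numbered 0, but 50 with normexp, 49 with the robust trend, 3 with the deposited table and 3 with features well above background on all 4 arrays. Small differences turned sign: Gpnmb against PBS infarct to 0.042 with the deposited table and 0.0488 with quantile normalization; against sham, Cd163 to -0.0197 and Mrc1 to -0.30 with normexp, and Cd68 to 0.0138 with the percentile over probes well above background on all 6 arrays. The median of the members against sham turned to -0.0197 with normexp, and Csf1r in PBS infarct against sham to 0.03 with that percentile and 0.20 with the mean over its probes, which also turned it to 0.23 between labelled and unlabelled cultures. Without ADSC infarct replicate 3, Gpnmb against PBS infarct turned to 0.07, and against sham Lgals3 turned to -0.16 and Spp1 to 0.08. In cultures against myocardium normexp moved the difference by over 1.5 times in fold for Trem2, Cd163 and Adgre1, with 3 members 2-fold higher and 5 lower as before. The cause was not tested. Leaving out single ADSC infarct arrays gave 0 to 1 members 2-fold apart from PBS infarct and from sham, Spp1 without replicate 1. With the deposited table, 1 of 6 members with values, not 5 of 9, was 2-fold lower in cultures than in myocardium; that table scales cultures and tissue separately and holds fewer members. Leaving out the PBS infarct array, chosen after seeing the data, gave 3 higher and 5 lower, as before. No paired analysis was possible because all groups but ADSC infarct hold 1 array. Near background, Mrc1, Adgre1 and the culture values of Trem2 and Cd163 are limited by dim signal.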

Other observations

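Among genes of macrophage lists, several were 2-fold apart between labelled and unlabelled cultures. Abca1, a cholesterol exporter, was higher in labelled cells by a log2 difference of 1.29, Il1rn, the interleukin-1 receptor antagonist, by 1.24 and Arg1, an arginase, by 1.08. Plac8 was lower at -1.13 and Lbp at -1.05. Each value is from 1 array against 1, where 0.447% of features were 2-fold higher and 0.581% 2-fold lower.

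The genes nearest to Adgre1 over the 4 myocardial arrays, by Euclidean distance between centred log2 levels, were Ctsk (0.08), Mchr1 (0.08) and Ebpl (0.08), and those nearest to Lgals3 were Gng8 (0.09), Ttc36 (0.09) and Gfra2 (0.10). Ctsk stood at -0.93 and -0.79 in ADSC infarct, -0.52 in PBS infarct and -0.17 in sham. Among 10436 genes over 4 arrays, such closeness is a description.

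Of 7 neutrophil markers, 3 were measured, and they differed in direction from sham. S100a8 averaged a log2 difference of -1.59 ± 0.70 in ADSC infarct against sham (SD, n = 2) and stood at -1.56 in PBS infarct against sham. S100a9 stood at -1.35 ± 0.71 and -1.40 in the same comparisons, whereas Lcn2, lipocalin-2, stood at 0.68 ± 0.12 and 0.23. Of 6 mast cell markers, 3 were measured. Cma1, the mast cell chymase, stood at 1.41 ± 0.07 in ADSC infarct against sham and 1.19 in PBS infarct against sham, Tpsb2, a tryptase, at 0.23 ± 0.04 and -0.65, and Kit, the stem cell factor receptor, at -0.31 ± 0.12 and -0.12. None of these passed in limma in ADSC infarct against sham, where 0.585% of features were 2-fold higher and 0.394% 2-fold lower in both arrays.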
